A study of Mus musculus with 18 samples.

Results

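Lyz2, Lyz1, Hhipl1 and Cyp4a10 are 4 of the 32496 genes or transcripts with a probe on a mouse expression array that was hybridised with RNA of bone-marrow-derived macrophages. Lyz2, Hhipl1 and Cyp4a10 were selected on the signals of this data set, because they were lower in PHD3 knockout samples than in wild-type samples in every condition. Lyz1 was added as the closest relative of Lyz2. The genotype difference therefore chose 3 of the members, and it is given below as a description. Where the array-wide genotype fit is given, the place of these 3 in it, or a call, reflects that choice and is no test of them. The responses to low oxygen and to starvation took no part in that choice and were tested.

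The cells came from the femurs of male C57BL/6J mice aged 8 weeks and were grown for 7 days with macrophage colony-stimulating factor, which turns marrow precursors into macrophages. There were 18 samples in 6 groups of 3. The groups are wild type or PHD3-/-, each at oxygen 20 with control feeding, at oxygen 1 with control feeding, and at oxygen 20 starved. The labels give oxygen as 1 or 20 without a unit, and they do not say whether cells or mice were starved. The design text names 3 mice each, and where nothing ties samples to separate mice or cultures the p-values measure only the spread between these samples. PHD3, encoded by Egln3, is an oxygen-dependent prolyl hydroxylase that acts on the alpha subunits of hypoxia-inducible factor.

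Lysozymes cut the peptidoglycan of bacterial cell walls. Mice carry neighbouring lysozyme genes: Lyz2, the lysozyme M of macrophages and granulocytes, and Lyz1, the lysozyme P best known from Paneth cells of the small intestine. The Lyz2 promoter is also widely used to drive Cre recombinase in myeloid cells, and the labels give the genotype only as PHD3-/- and name no Cre. Hhipl1 encodes a secreted protein named for its likeness to Hhip, which binds hedgehog ligands outside the cell. Cyp4a10 is a cytochrome P450 that oxidises the terminal carbon of fatty acids, known mainly from liver and kidney, where the fatty acid receptor PPARA drives it.

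The start regions of the pair of lysozyme genes are shown because their proximity and likeness bear on every comparison between them. Both lie on the minus strand of chromosome 10. The RefSeq promoter windows (build GRCm38.p6), cut to the 250 bases before the start site, are chr10:117292869-117293118 for Lyz1 and chr10:117282273-117282522 for Lyz2. They are written from 5′ to 3′, and capitals mark the 50 bases next to the start site that are identical in both.
Lyz1: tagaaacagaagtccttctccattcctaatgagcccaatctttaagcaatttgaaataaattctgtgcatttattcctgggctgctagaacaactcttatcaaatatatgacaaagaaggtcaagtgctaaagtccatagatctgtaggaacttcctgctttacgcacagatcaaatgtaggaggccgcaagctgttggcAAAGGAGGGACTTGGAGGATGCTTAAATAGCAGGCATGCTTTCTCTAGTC
Lyz2: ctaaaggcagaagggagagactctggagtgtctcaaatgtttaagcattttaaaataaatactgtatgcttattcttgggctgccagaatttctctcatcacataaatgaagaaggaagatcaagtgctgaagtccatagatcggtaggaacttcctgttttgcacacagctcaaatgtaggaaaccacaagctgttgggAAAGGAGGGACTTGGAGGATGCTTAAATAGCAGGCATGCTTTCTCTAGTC
Aligned end to end, the windows had the same base in 200 of 252 columns (79.4%), with 48 mismatches and 4 gap columns. The TATA-like letters TTAAATA occurred once in each of them, within the capitals, and on either strand in 4.18% of all 32851 RefSeq windows of that length. They did not occur in the window of Hhipl1. The hypoxia response element cores ACGTG and GCGTG, present in 16.57% and 28.16% of all windows, were found in none of the windows of Lyz1, Lyz2 and Hhipl1. The same held for the PU.1 letters GAGGAAGT (2.44% of all windows) and for the direct repeat bound by PPAR receptors (0.03%). Motifs were searched on both strands, and these letters are a description of the windows alone.

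The array held 7 probes for the 4 genes. Lyz2 and Lyz1 had 1 probe each, Hhipl1 had 2 and Cyp4a10 had 3. The single probes of Lyz2 and Lyz1, probe 1 of Hhipl1 and probe 1 of Cyp4a10 were well above background in all 18 samples. Cyp4a10 probe 2 was above background in 9 samples, and probe 2 of Hhipl1 and probe 3 of Cyp4a10 were above it in 0 of 18. Of the 7 probes, 5 entered the test, which required signal above background in at least 3 samples. Levels below are log2 signals relative to each array's 75th percentile, where 0 is that percentile, and they are set against each other only within a probe. Whether the probes tell Lyz1 from Lyz2 RNA was not tested, since probe sequences were not used here.

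Across the 20 arrays, on 5 slides, the 75th percentile of the signal ran from 934 to 1556 and between 56.1% and 65.4% of spots were well above background, with 0 saturated spots. All 11 macrophage markers on the array (among them Adgre1, Csf1r and Cd68) were above background in all samples, and their summed log2 level was 9.32 to 9.75 in knockout and 9.33 to 9.74 in wild-type samples. Of 9 neutrophil markers tested, 6 were above background in all samples, with a summed level of 5.61 to 6.09 in knockout and 5.60 to 6.22 in wild-type samples. No marker of either list passed the genotype test. The median knockout minus wild-type difference of the 9 neutrophil markers was -0.39 at oxygen 20, 0.05 at oxygen 1 and -0.03 after starvation. The summed level of 6 osteoclast markers, 4 of them above background in all samples, was higher on average in knockout samples in each condition. None of the 6 was called. Their median knockout minus wild-type difference was -0.004 at oxygen 20, 0.16 at oxygen 1 and 0.11 after starvation, so the sum and the median differ at oxygen 20. The sum was 5.75 to 6.14 in knockout and 5.42 to 5.71 in wild-type samples at oxygen 20. It was 5.35 to 5.98 and 5.06 to 5.40 at oxygen 1, and 5.35 to 5.73 and 5.01 to 5.45 after starvation, with overlap in both. Its part in the genotype differences of the members was not tested.

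Egln3, the targeted gene, was above background on both of its probes in all 18 samples. On probe 1 it ranged from -3.77 to -3.10 in wild-type and from -4.20 to -3.76 in knockout samples at oxygen 20. At oxygen 1 it ranged from 2.83 to 3.00 in wild-type and from 2.71 to 2.98 in knockout samples, and after starvation from -2.36 to -2.19 and from -2.61 to -2.29. The genotypes overlapped in each condition, and both genotypes had far more Egln3 signal at oxygen 1. Knockout minus wild type, averaged over the conditions, was -0.22 on probe 1 and -0.20 on probe 2. The labels name neither the deleted part of the gene nor the place of the probes, so this signal does not check the labels, and knockout below means the samples labelled PHD3-/-.

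Lyz2 signal in knockout samples was about 49.1% of that in wild-type samples, and it was also about that much lower at oxygen 1 than at oxygen 20 in either genotype. In wild-type controls at oxygen 20 the Lyz2 levels were 6.63, 6.22 and 6.39, and in knockout controls 5.52, 5.34 and 5.37. At oxygen 1 they were 5.55, 5.29 and 5.46 in wild-type and 4.71, 4.08 and 4.46 in knockout samples. After starvation they were 6.59, 6.44 and 6.24 in wild-type and 5.50, 5.47 and 5.12 in knockout samples. Every knockout sample lay below every wild-type sample of its condition, and the wild-type samples at oxygen 1 lay among or near the knockout controls. In bulk RNA of this kind, fewer cells that express a gene and less of its RNA per cell cannot be told apart.

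The knockout minus wild-type difference in mean Lyz2 level was -1.003 at oxygen 20 (wild type 6.42 ± 0.21, knockout 5.41 ± 0.10, SD, n = 3 each), -1.02 at oxygen 1 (5.43 ± 0.13 and 4.41 ± 0.32) and -1.06 after starvation (6.42 ± 0.17 and 5.36 ± 0.21). These differences chose the gene. Within single slides, which each held only some of the samples, the difference ran from -1.02 to -0.79 at oxygen 20 (2 slides), from -1.21 to -0.69 at oxygen 1 (3 slides) and was -1.12 after starvation (1 slide).

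**Figure D1:**
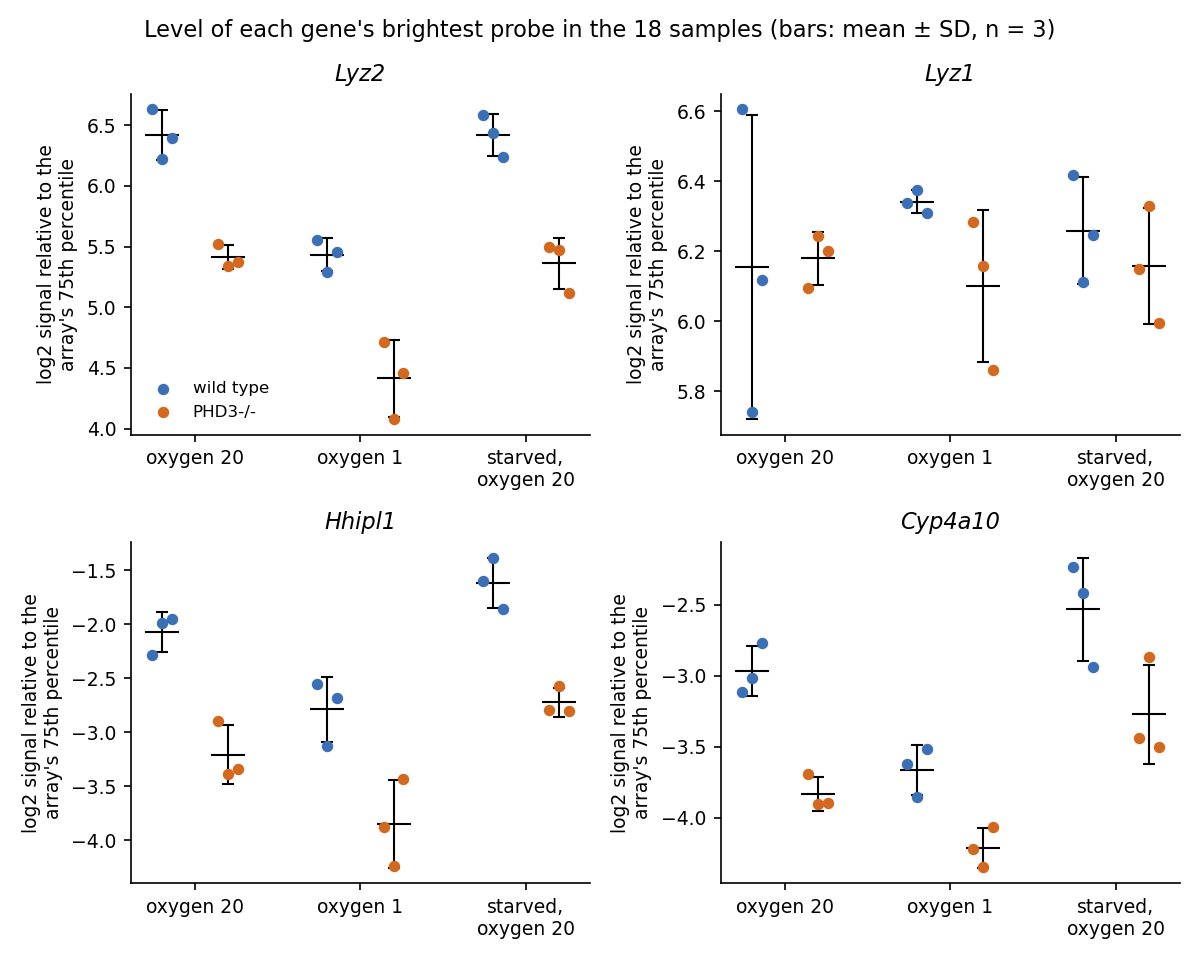
Log2 signal relative to the array's 75th percentile for the brightest probe of Lyz2, Lyz1, Hhipl1 and Cyp4a10, by condition (x axis) and genotype (blue, wild type; orange, PHD3-/-). Points are samples, spread sideways for visibility, and black bars are mean ± SD of 3 samples. Each panel has its own y axis. Knockout points of Lyz2 and Hhipl1 lie below all wild-type points of the same condition, those of Cyp4a10 overlap after starvation, and those of Lyz1 overlap except at oxygen 1.

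Lyz1, the gene next to Lyz2, was measured at overlapping levels in both genotypes in 2 of the 3 conditions. The Lyz1 levels were 6.61, 5.74 and 6.12 in wild-type and 6.09, 6.24 and 6.20 in knockout controls at oxygen 20. They were 6.34, 6.38 and 6.31 in wild-type and 6.28, 6.16 and 5.86 in knockout samples at oxygen 1. After starvation they were 6.42, 6.11 and 6.25 in wild-type and 6.15, 6.33 and 6.00 in knockout samples. The genotypes overlapped at oxygen 20 and after starvation, while at oxygen 1 all knockout samples were below all wild-type samples by a small margin. The share of all probes that separate this way at oxygen 1 was not counted. The widest spread of any group was that of the wild-type controls, where replicates 1 and 2 differed most.

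The mean difference of Lyz1, knockout minus wild type, was 0.02 at oxygen 20 (knockout at 102% of wild type), -0.24 at oxygen 1 (84.6%) and -0.10 after starvation (93.2%), and -0.11 on average. Over the 6 groups the mean levels of Lyz1 spanned 0.24, against 2.01 for Lyz2. The oxygen 20 difference was 0.25 without wild-type control replicate 1 and -0.18 without wild-type control replicate 2, so it has no settled sign.

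Hhipl1 probe 1 was lower in knockout samples by a margin much like that of Lyz2. The Hhipl1 levels were -2.28, -1.99 and -1.95 in wild-type and -2.89, -3.39 and -3.34 in knockout controls at oxygen 20. They were -2.56, -3.13 and -2.69 in wild-type and -3.87, -4.24 and -3.44 in knockout samples at oxygen 1. After starvation they were -1.60, -1.39 and -1.86 in wild-type and -2.80, -2.57 and -2.80 in knockout samples. The genotypes did not overlap in any condition, and the starved wild-type samples were the highest of all 18.

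Knockout minus wild type for Hhipl1 probe 1 was -1.13 at oxygen 20 (45.5% of wild type), -1.06 at oxygen 1 (47.9%) and -1.10 after starvation (46.5%). Within slides it ran from -1.39 to -0.95 at oxygen 20, from -1.12 to -0.75 at oxygen 1 and was -0.94 after starvation. With another background correction (normexp) the average difference of -1.10 was -0.81 scaled to the 75th percentile and -0.74 after quantile normalization, and the oxygen 1 difference was -0.62 and -0.60. Hhipl1 probe 2, never above background, gave 0.15 on average and 0.56 at oxygen 1, which says nothing of the gene's level.

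Cyp4a10 probe 1 had the smallest genotype difference of the 3 picked genes. The Cyp4a10 levels on probe 1 were -3.11, -3.02 and -2.77 in wild-type and -3.69, -3.91 and -3.90 in knockout controls at oxygen 20. They were -3.62, -3.86 and -3.51 in wild-type and -4.22, -4.35 and -4.07 in knockout samples at oxygen 1. After starvation they were -2.24, -2.42 and -2.94 in wild-type and -3.44, -2.87 and -3.50 in knockout samples. The genotypes were apart at both oxygen levels, and after starvation knockout replicate 2 lay above wild-type replicate 3. How many of all probes were apart at both oxygen levels was not counted.

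Knockout minus wild type for Cyp4a10 probe 1 was -0.86 at oxygen 20 (54.9% of wild type), -0.55 at oxygen 1 (68.4%) and -0.74 after starvation (59.9%). Within slides it ran from -1.12 to -1.08 at oxygen 20, from -0.55 to -0.32 at oxygen 1 and was -0.56 after starvation. Under normexp with quantile normalization the average of -0.72 was -0.44. The oxygen 1 difference was -0.27 with normexp scaled to the 75th percentile and -0.25 with normexp and quantile normalization.

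The probes of Cyp4a10 disagreed. Probe 2, above background in 9 samples, ranged from -6.84 to -5.40 and gave a knockout minus wild-type difference of 0.12 at oxygen 20, -0.02 at oxygen 1 and 0.22 after starvation, with overlap in each condition. Probe 3, never above background, gave -0.08 on average. The lower signal in knockout samples was thus seen on 1 of the 3 Cyp4a10 probes, the only probe above background in all samples.

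**Figure D2:**
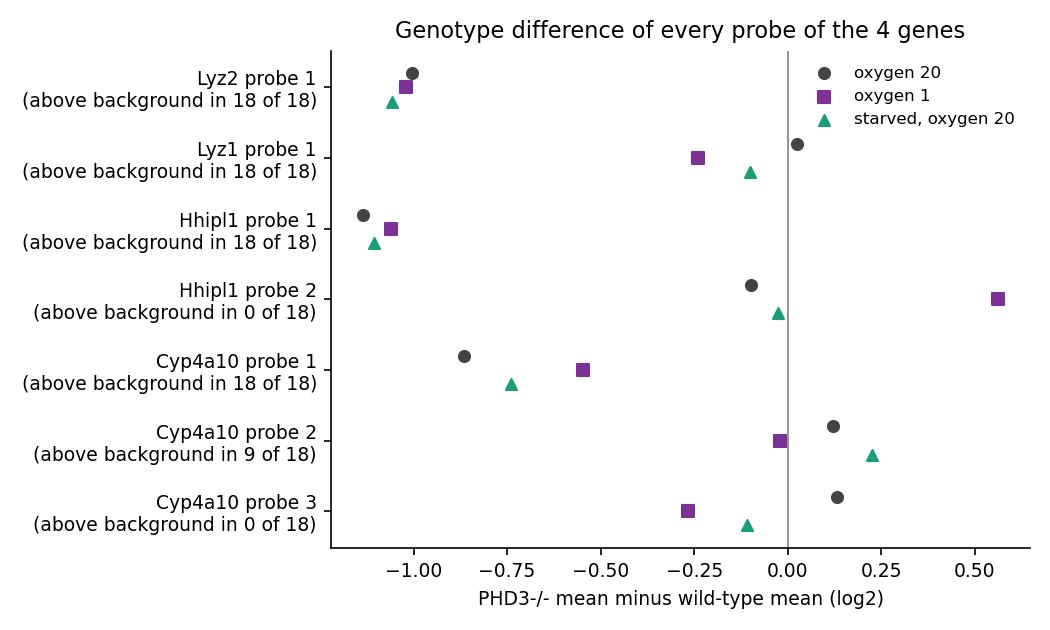
Mean log2 level of PHD3-/- samples minus mean of wild-type samples (3 each) for all 7 probes of the 4 genes at oxygen 20 (circles), oxygen 1 (squares) and after starvation (triangles). Probe 1 of Lyz2, Hhipl1 and Cyp4a10 lies between -1.13 and -0.55 in every condition. The probes that were not above background in all samples, with Lyz1, lie on both sides of 0. They range from -0.27 (Cyp4a10 probe 3) to 0.56 (Hhipl1 probe 2), both at oxygen 1.

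The genotype difference was rare on this array, which sets the scale for the choice of members. Averaged over the conditions, 4 of 25372 probes (0.0158%) passed an adjusted p of 0.05 in limma's fit, and in each single condition 0 probes (0%) passed, with 291, 353 and 398 of 20813 genes at an unadjusted p below 0.05 at oxygen 20, at oxygen 1 and after starvation. These counts are the background of the choice, and nothing about the members is read from them. In the order of that fit the first 4 were Lyz2 (-1.03), Hhipl1 (-1.10), a transcript without a symbol that was higher in knockout samples (0.97) and another that was lower (-0.92). Next came Cyp4a10 (-0.72), Prom1 (-0.76), which encodes a membrane protein used as a marker of stem and progenitor cells, and the clone-named 3830403N18Rik (1.18). Knockout samples lay below wild-type samples without overlap in all 3 conditions on 6 probes (0.0236%), with Hhipl1, Lyz2 and Prom1 as the named genes among them. They lay above on 6 other probes (0.0236%), where Gm20736, Gm16430 and 3830403N18Rik were the named genes.

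Low oxygen lowered Lyz2 in both genotypes. The oxygen 1 minus oxygen 20 difference was -0.98 ± 0.16 (SE) in wild-type samples (50.6% of control, adjusted p = 2.31e-04) and -0.999 ± 0.16 in knockout samples (50.05%, adjusted p = 1.82e-04), by limma with Benjamini-Hochberg adjustment over all probes tested. In this comparison 18.6% of probes fell in wild-type and 19.4% in knockout samples. All 3 samples at oxygen 1 lay below all 3 controls in each genotype, and the share of all probes that separate this way was not counted. Within slides the difference was -1.34 in wild-type samples (1 slide) and from -1.15 to -0.48 in knockout samples (3 slides). Knockout samples at oxygen 1 had 25.0% of the Lyz2 signal of wild-type controls, the lowest mean of the 6 groups.

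The summed neutrophil markers moved alongside Lyz2 in wild-type samples, from 5.91 to 6.22 at oxygen 20 down to 5.64 to 5.70 at oxygen 1. In knockout samples, where Lyz2 fell as much, they were 5.61 to 6.09 and 5.66 to 6.01, with overlap. These sums are taken on the unlogged scale, where the brightest markers weigh most. Counted marker by marker, 5 of the 9 tested neutrophil markers fell and 1 rose at oxygen 1 in wild-type samples (median -0.77). In knockout samples 4 fell and 1 rose (median -0.57). Of all genes, 18.1% fell in wild-type and 18.4% in knockout samples. The summed macrophage markers were not lower at oxygen 1, at 9.65 to 9.74 against 9.33 to 9.58 in wild-type and 9.44 to 9.75 against 9.32 to 9.42 in knockout samples. Of the 11 macrophage markers, 3 were called higher and 3 lower at oxygen 1 in each genotype. Other marker lists moved more at oxygen 1. The mean summed level of the 2 tested mast cell, basophil and eosinophil markers was 1.75 at oxygen 1 and -0.52 at oxygen 20 in wild-type and 1.82 and -0.53 in knockout samples, and that of the 3 tested erythroid and megakaryocyte markers 4.57 and 2.61, and 4.56 and 2.77. The osteoclast sum was lower at oxygen 1 in wild-type samples without overlap and overlapped in knockout samples. Yet 2 of the 6 osteoclast markers were called higher there and 0 lower in each genotype. Of the 3 erythroid and megakaryocyte markers, 1 was called higher and 0 lower in each genotype. Of all genes, 20.6% rose at oxygen 1 in wild-type and 21.5% in knockout samples. The part of these cell types, neutrophils included, in the oxygen 1 differences of the members was not tested.

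Starvation did not move Lyz2 past the threshold. The starved minus fed difference was 0.0044 in wild-type samples (95% interval -0.34 to 0.35, adjusted p = 0.993 in limma) and -0.05 in knockout samples (-0.40 to 0.30, adjusted p = 0.897). Lyz1 did not pass the limma test in any of these comparisons. At oxygen 1 its difference was 0.19 in wild-type samples (95% interval -0.19 to 0.56, adjusted p = 0.431), a direction that turned under quantile normalization (-0.07), and -0.08 in knockout samples (-0.45 to 0.30, adjusted p = 0.760). Without wild-type control replicate 1, the oxygen 1 difference of Lyz1 in wild-type samples was 0.41 and passed (adjusted p = 0.0459, with a limma adjusted p of up to 0.936 over the alternatives). After starvation the Lyz1 differences were 0.10 (adjusted p = 0.802) and -0.02 (adjusted p = 0.961).

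Hhipl1 probe 1 also fell at oxygen 1, by 0.72 ± 0.21 (SE) on the log2 scale in wild-type samples (60.8% of control, adjusted p = 0.0136, limma) and by 0.64 ± 0.21 in knockout samples (64.0%, adjusted p = 0.0230). The samples at oxygen 1 did not overlap the controls in either genotype, and the share of all probes that separate this way was not counted. The calls depended on single samples. The wild-type call was lost without control replicate 3 (adjusted p = 0.0510) or without oxygen 1 replicate 2 (0.0684), and the knockout call without control replicate 1 (0.111) or without oxygen 1 replicates 1 or 2 (0.0545 and 0.123). With normexp background correction scaled to the 75th percentile neither passed, at -0.54 (adjusted p = 0.0633) in wild-type and -0.31 (adjusted p = 0.332) in knockout samples, while with normexp and quantile normalization both did (-0.56 and -0.37). Over all alternatives the adjusted p of limma ran from 0.00318 to 0.0684 in wild-type and from 0.00540 to 0.332 in knockout samples.

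After starvation Hhipl1 probe 1 was higher by 0.45 in wild-type samples (95% interval 0.01 to 0.90) and by 0.48 in knockout samples (0.04 to 0.93). It did not overlap the fed samples in either, and the share of all probes that separate this way was not counted. Neither difference passed the limma test after adjustment (adjusted p = 0.199 and 0.156), where 6.48% and 7.06% of probes rose. Cyp4a10 probe 1 was higher by 0.44 in wild-type (adjusted p = 0.1695) and by 0.56 in knockout samples (95% interval 0.16 to 0.97, adjusted p = 0.0654). Without starved wild-type replicate 3 both Cyp4a10 differences passed, at 0.64 (adjusted p = 0.0336) and 0.56 (adjusted p = 0.0327). Over all alternatives the limma adjusted p ran up to 0.517 and 0.735.

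Cyp4a10 probe 1 fell at oxygen 1 in wild-type samples by 0.70 ± 0.19 (SE) on the log2 scale (61.7% of control, adjusted p = 0.00898, limma), and the call was lost with normexp scaled to the 75th percentile (-0.48, adjusted p = 0.160, the highest over the alternatives) but not with normexp and quantile normalization (-0.54). In knockout samples the difference was -0.38 (95% interval -0.78 to 0.02, adjusted p = 0.127). The difference between the genotypes' responses was not tested, because it is made of the values that chose the gene. Cyp4a10 probe 2 went the other way at oxygen 1, at 0.64 in wild-type (adjusted p = 0.0756) and 0.50 in knockout samples (adjusted p = 0.162), and did not pass. The wild-type difference of probe 2 passed with only those 2 groups in the limma fit (adjusted p = 0.0286) or without starved wild-type replicate 3 (0.0440), and it was 0.09 with normexp and quantile normalization (adjusted p of up to 0.794 over the alternatives). Knockout samples at oxygen 1 had the lowest mean of the 6 groups for Lyz2, Hhipl1 probe 1 and Cyp4a10 probe 1 alike. Starved wild-type samples had the highest mean for Hhipl1 probe 1 and Cyp4a10 probe 1. For Lyz2 they were level with the wild-type controls (6.42 in both). The genotype part of this order is made of the differences that chose the genes.

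**Figure D3:**
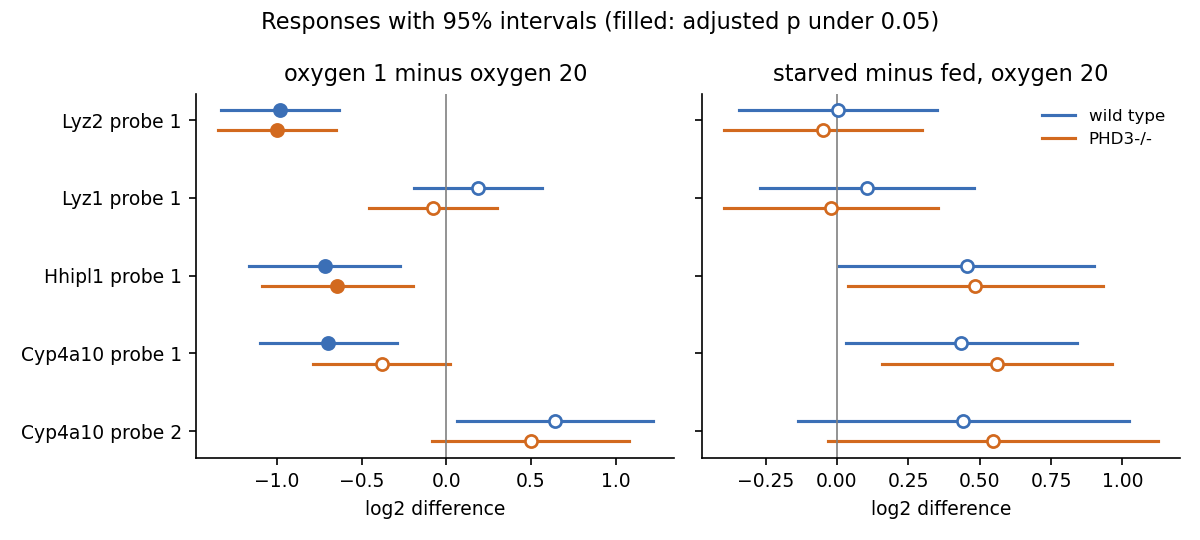
Log2 differences of the 5 tested probes between oxygen 1 and oxygen 20 (left) and between starved and fed samples at oxygen 20 (right), in wild-type (blue) and PHD3-/- samples (orange), 3 samples per group. Lines are 95% intervals of the limma fit, and filled points have an adjusted p under 0.05. Filled points are Lyz2 and Hhipl1 in both genotypes and Cyp4a10 probe 1 in wild-type samples, all at oxygen 1.

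Sample by sample, the levels of the 3 picked genes were correlated with each other. Over the 18 samples Pearson's r was 0.95 between Cyp4a10 and Hhipl1, 0.92 between Hhipl1 and Lyz2 and 0.88 between Cyp4a10 and Lyz2. With the mean of each of the 6 groups removed, so that neither genotype nor condition contributes, r was 0.69, 0.43 and 0.48. Lyz1 had an r of 0.25 with Lyz2, 0.05 with Hhipl1 and 0.12 with Cyp4a10, and 0.49, -0.43 and 0.03 with the group means removed, so that within groups Lyz1 and Lyz2 were as correlated as Lyz2 was with Hhipl1 and Cyp4a10. The genotype that chose the genes is part of the first set of values, and samples share arrays, slides and scaling, so these are descriptions.

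**Figure D4:**
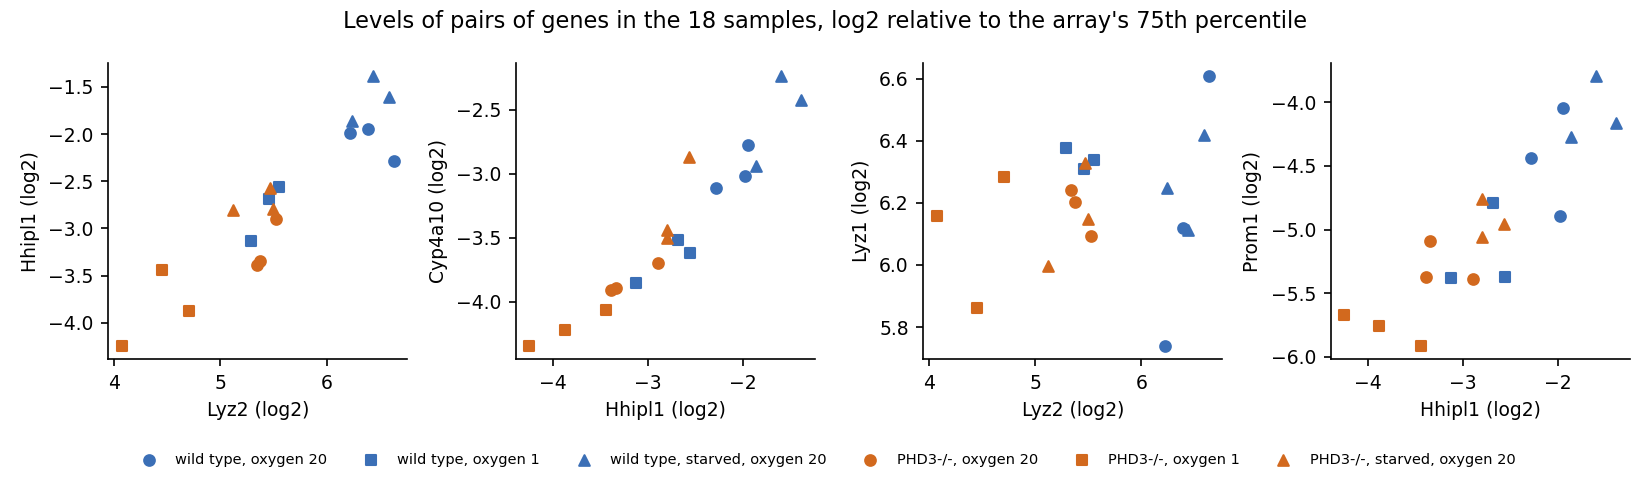
Log2 levels of pairs of genes in the 18 samples, wild type in blue and PHD3-/- in orange, with circles for oxygen 20, squares for oxygen 1 and triangles for starved samples. Hhipl1 rises with Lyz2 (r = 0.92), Cyp4a10 with Hhipl1 (r = 0.95) and Prom1 with Hhipl1 (r = 0.88), while Lyz1 against Lyz2 (r = 0.25) shows no such line.

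Among all other tested genes, Prom1 had the pattern most like each of the 3 picked genes over the 18 samples, with an r of 0.89 with Lyz2, 0.88 with Hhipl1 and 0.92 with Cyp4a10. With the condition means removed it was again first, at 0.86, 0.79 and 0.85, values that still hold the genotype difference. With the means of all 6 groups removed they were 0.28, -0.05 and 0.36. Prom1 levels in wild-type samples were -4.44, -4.90 and -4.05 at oxygen 20, -5.37, -5.38 and -4.79 at oxygen 1 and -3.80, -4.16 and -4.27 after starvation. In knockout samples they were -5.39, -5.38 and -5.09, then -5.76, -5.67 and -5.92, and -4.76, -4.96 and -5.06. The genotypes were apart in every condition. Prom1 has 2 probes here and only 1 was tested.

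Klc4, a light chain of the kinesin motor, came next for Hhipl1 (r = 0.81) and Cyp4a10 (r = 0.86), with a genotype difference of -0.27 that was not called (adjusted p above 0.05). The other genes nearest to Lyz2 were Arpp21 (r = 0.84, above background in 4 samples) and Ptgir, the prostacyclin receptor (r = 0.78), and with condition means removed Klc4 (0.80) and Gm14548 (0.79). Nostrin (0.76) also stood near Hhipl1, and Clic5 (0.74) with condition means removed. Madcam1 (0.85) also stood near Cyp4a10, with Flrt2 (0.77) after removal. Nearest to Lyz1 were other genes: Dab1 (r = 0.89), Mknk1, a kinase of the translation factor eIF4E (0.86), and 4833422C13Rik (0.84), and Anks1 (0.86) after removal of the condition means.

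Other than the members themselves, none of the tested genes next to them along the chromosome was called between genotypes. In the gene order of the RefSeq table (GRCm38.p6), Lyz2 lies between 9530003J23Rik, which was not tested, and Lyz1, and Lyz1 is followed by Cpsf6, a factor of mRNA 3′ end processing (0.06, knockout minus wild type averaged over the conditions). Hhipl1, on chromosome 12, lies between Ccdc85c, not tested, and Cyp46a1, a cholesterol hydroxylase (-0.05). Cyp4a10, on chromosome 4, lies between its relatives Cyp4a14 (-0.15) and Cyp4a31 (-0.04). Egln3 also lies on chromosome 12, between Npas3, not tested, and Sptssa (-0.04).

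Within 5 genes on either side of the 4 members and Egln3, 26 other genes were tested, and limma called 0 of them. At an unadjusted p below 0.05 there was 1, Cpm, a carboxypeptidase gene near the lysozymes, which was higher in knockout samples by 0.28. Within 50 genes on either side, 264 genes were tested with 0 calls, and 6 of them (2.27%) had an unadjusted p below 0.05, against 507 of 20813 genes (2.44%) over the whole array.

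**Figure D5:**
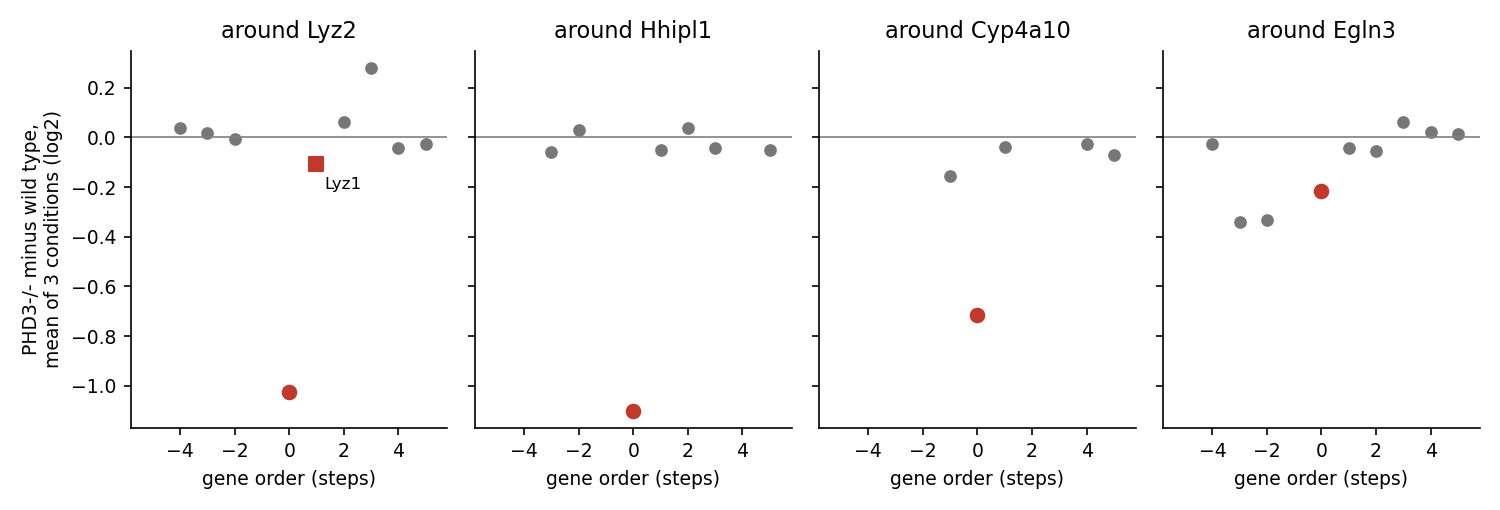
Log2 difference of PHD3-/- minus wild type, averaged over the 3 conditions, for the tested genes up to 5 steps along the chromosome from Lyz2, Hhipl1, Cyp4a10 and Egln3 (grey; red circles, the named gene; red square, Lyz1). Lyz2 is at -1.03, Hhipl1 at -1.10 and Cyp4a10 at -0.72, and the grey points lie between -0.34 and 0.28.

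Among the lysozyme genes, Lyz2 was the only tested member that fell at oxygen 1 with the scaling used here, and it also fell under each of 4 other scalings or sources of values that were added after seeing the data. Of 10 genes of the family list, all with a probe, 5 were tested. In wild-type samples 2 rose and 1 fell at oxygen 1 (list median 0.19, all probes 0.02). On the whole array, taking the brightest probe of each gene, 20.6% of genes rose and 18.1% fell there, 21.5% and 18.4% at oxygen 1 in knockout samples, 6.47% and 6.01% after starvation in wild-type and 7.13% and 6.38% in knockout samples. Lyzl4, a lysozyme-like gene known from testis, rose at oxygen 1 by 1.25 in wild-type and 1.20 in knockout samples and after starvation by 1.80 and 1.74, all past the limma threshold. The rise at oxygen 1 was called in 4 of those 4 settings in wild-type and in 3 in knockout samples. Lyzl6 rose by 0.70 at oxygen 1 in wild-type samples, which passed in 0 of the 4, and had 0.18 in knockout samples. Lyz1 fell in knockout samples in 1 of the 4 (-0.33). Lalba, the lysozyme relative that serves lactose synthesis in milk, had -0.53 and -0.38 and was not called. The genotype differences of Lyzl4, Lyzl6 and Lalba, averaged over the conditions, were 0.03, -0.03 and 0.05.

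Of 19 secreted or granule antimicrobial genes, which include Lyz1 and Lyz2, 17 were tested. At oxygen 1, 2 rose and 7 fell in wild-type samples and 2 rose and 6 fell in knockout samples, with medians of -0.33 and -0.39. After starvation 0 rose in either genotype, while 6 fell in wild-type and 5 in knockout samples. Of all genes, 20.6% rose and 18.1% fell at oxygen 1 in wild-type samples, and 21.5% and 18.4% in knockout samples. The shares after starvation were 6.47% and 6.01%, and 7.13% and 6.38%. Over the 4 other settings, 5 to 7 of these genes fell at oxygen 1 in wild-type and 5 to 8 in knockout samples, and after starvation 0 to 1 rose and 2 to 7 fell in wild-type and 0 rose and 4 to 5 fell in knockout samples. Acod1, which makes the antimicrobial metabolite itaconate, rose at oxygen 1 by 0.92 in wild-type and 1.15 in knockout samples, and Mpeg1, a pore-forming protein of macrophages, rose by 0.40 and 0.38. The Acod1 calls held in 4 of the 4 other settings, and the Mpeg1 calls in 0 (0.09 to 0.37 in wild-type and 0.10 to 0.36 in knockout samples). Granule genes fell with Lyz2 at oxygen 1 in wild-type samples. Ngp fell by 3.78 (above background in 2 of the 3 samples at oxygen 1), Ltf, lactoferrin, fell by 2.60 and Mpo, myeloperoxidase, fell by 1.03. Ngp fell in knockout samples too, where it was above background in all 3 controls and in no sample at oxygen 1. It was at least 10.4-fold lower there (adjusted p = 2.59e-04, limma). For this bound the samples at oxygen 1 were set no lower than the lowest signal well above background on their arrays. After starvation Ltf fell by 4.59 in wild-type samples and fell by 4.13 in knockout samples, where Lyz2 had 0.0044 and -0.05. In the averaged genotype comparison no gene of the list other than Lyz2, which was picked on that difference, was called, and Acod1, Mpeg1, Ltf and Mpo were at -0.12, -0.12, -0.32 and 0.13.

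Of 23 hedgehog pathway genes, 15 were tested. At oxygen 1, 2 rose and 3 fell in wild-type samples and 2 rose and 4 fell in knockout samples, with medians of 0.09 and -0.08. Of all genes, 20.6% rose and 18.1% fell there in wild-type samples, and 21.5% and 18.4% in knockout samples. Over the 4 other settings, 0 to 2 rose and 0 to 4 fell in each genotype. The co-receptors Boc and Cdon rose, Boc by 1.28 in both genotypes and Cdon by 1.12 in wild-type and 1.64 in knockout samples, each called in 3 of the 4 other settings in either genotype. Gli3, a transcription factor of the pathway, fell by 0.78 and 0.61, and Smo, the signal transducer, fell by 0.60 in knockout samples and had -0.20 in wild-type samples. Scube1, a secreted protein, was the remaining call in both genotypes, and in no sample at oxygen 1 was it well above background. In the averaged genotype comparison no gene of the list other than Hhipl1, which was picked on that difference, was called, and Boc, Cdon, Gli3 and Smo were at 0.02, 0.09, 0.05 and 0.10.

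Of 20 Cyp4 genes, 8 were tested, and at oxygen 1 4 rose and 1 fell in wild-type samples and 4 rose and 0 fell in knockout samples, with medians of 0.35 and 0.26. The 1 that fell was Cyp4a10. Of all genes, 20.6% rose and 18.1% fell at oxygen 1 in wild-type samples, and 21.5% and 18.4% in knockout samples. Over the 4 other settings 3 to 4 rose and 0 to 2 fell in wild-type samples, and 2 to 4 rose and 0 to 1 fell in knockout samples. Cyp4f18, which acts on leukotriene B4, rose by 1.99 in wild-type and 1.97 in knockout samples at oxygen 1 and by 1.00 and 0.89 after starvation. Cyp4f16 rose at oxygen 1 by 1.00 and 0.67 and Cyp4v3 by 0.73 and 0.92. Cyp4a14, the gene next to Cyp4a10, was not well above background in any control and was above it in 1 wild-type and 2 knockout samples at oxygen 1. Its mean there was 1.45-fold and 1.16-fold above the lowest signal well above background on the control arrays. These means include samples not above background, so the values are no lower bounds. The rise was called (adjusted p = 2.74e-05 and 7.61e-05 in limma). Over the 4 other settings it was called in 3 in wild-type samples (0.22 to 1.72) and in 2 in knockout samples (0.17 to 1.55). Cyp4a31 (-0.28 and -0.14), Cyp4f13 (-0.19 and -0.46) and Cyp4f17 (-0.02 and -0.17) were not called at oxygen 1. In limma's averaged genotype comparison none of the 8 tested genes was called, with 507 of 20813 genes of the array at an unadjusted p below 0.05. Cyp4a10, which was picked on that difference, was called in 2 of the 4 other settings, and neither outcome is a test of it. The 7 genes other than Cyp4a10 lay between -0.15 and 0.04.

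Cyp4a10 is a textbook target of PPARA, and 27 of 32 genes of a list of PPAR receptors and targets were tested. At oxygen 1, 5 rose and 8 fell in wild-type and 5 rose and 7 fell in knockout samples, with medians of -0.21 and -0.07. Over the 4 other settings 1 to 5 rose and 4 to 10 fell in wild-type, and 0 to 5 rose and 4 to 9 fell in knockout samples. After starvation 3 rose and 1 fell in wild-type and 6 rose and 1 fell in knockout samples. Of all genes, 20.6% rose and 18.1% fell at oxygen 1 in wild-type samples, and 21.5% and 18.4% in knockout samples. The shares after starvation were 6.47% and 6.01%, and 7.13% and 6.38%. Acadl, of mitochondrial fatty acid oxidation, fell at oxygen 1 by 0.73 and 0.74, Ehhadh, of peroxisomal oxidation, by 1.21 and 1.28, and the receptor Pparg by 0.77 and 0.87. Fabp4, a fatty acid carrier, rose after starvation by 1.83 and 1.97, and Plin2, which coats lipid droplets, by 0.73 and 0.82. No gene of the list was called in the averaged genotype comparison, though Cyp4a10, which was picked on that difference, was called in 2 of the 4 other settings. Acadl, Ehhadh, Pparg, Fabp4 and Plin2 were at 0.01, -0.08, 0.15, -0.20 and 0.00 in that comparison. Angptl4, a secreted inhibitor of lipoprotein lipase, was at 0.35 there (adjusted p = 0.235).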

How the data were processed

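The members and gene lists were chosen with earlier results of these data known. The deposited scanner files hold, per the file headers, spot intensity, already background-subtracted by Agilent Feature Extraction 10.7.3.1, with 1 colour and no scaling between arrays. The deposited value table is in log2 units on a common scale and served as an alternative. The submitters' processing notes name limma.

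Here the log2 processed signal minus the array's 75th percentile was used. Flagged spots were left out, spots of a probe were averaged, and the 2 samples with 2 arrays were averaged over their arrays. A probe was tested when well above background in at least 3 of 18 samples, with at least 2 values in every group. That left 25372 probes. Group means of the 6 groups were fitted over all 18 samples with limma 3.58.1 in R 4.3.3, and two-sided p-values were adjusted by Benjamini and Hochberg over all probes of each of 8 comparisons, with a threshold of 0.05. Errors beside fitted differences are standard errors, and the number of arrays limits the precision.

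Probe accessions were matched to RefSeq symbols (26055 of 39429 probes matched). For neighbours, lists and likeness, the brightest probe stood for each of 20813 genes. Besides the members, Egln3 and immediate neighbours, the rule named list genes called by the averaged genotype comparison, every tested lysozyme and Cyp4 gene, up to 6 genes per other list by adjusted p, and the 3 genes of highest correlation with each member, of which 1 is not reported here. In data simulated for oxygen 1 against oxygen 20 in wild-type samples, 128 of 200 probes changed by 1 on the log2 scale were recovered, with 9 false calls among 25372. The simulated noise was independent between samples and probes, and 9847 probes passed in the real comparison. These rates check the code and need not hold for the real data. Alternatives changed the background correction, scaling, filter, flagged spots, arrays, slide, samples and source of values. For the gene lists, other scalings and sources were added after seeing the data. Normexp was run on the median signal with an offset of 50, since the mean signal is not used here.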

Additional observations from a re-analysis of the deposited data

How the results depend on the processing

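Each response of the members was recomputed under 33 alternatives (31 for Cyp4a10 probe 2). The fall of Lyz2 at oxygen 1 passed in all 33 in both genotypes, with a range of -1.27 to -0.87 (wild type) and -1.16 to -0.83 (knockout). The averaged knockout minus wild-type differences of Lyz2, Lyz1, Hhipl1 probe 1 and Cyp4a10 probe 1 kept their sign in the 32 alternatives that gave one, and that of Cyp4a10 probe 2 ran from -0.19 to 0.22. Those of the dim probes moved most with the background: on normexp scaled to the 75th percentile, the average was -0.81 for Hhipl1, and with quantile normalization -0.74 for Hhipl1 and -0.44 for Cyp4a10. With normexp and the 75th percentile the oxygen 1 calls of Hhipl1 (-0.54 in wild-type, -0.31 in knockout) and of Cyp4a10 in wild-type samples (-0.48) were lost, the starved difference of Lyz2 in wild-type samples was -0.055, and 4596 and 5046 probes passed at oxygen 1 and 1347 and 1065 after starvation (wild type, knockout), against 9847, 10208, 3179 and 3427. The Hhipl1 call in knockout samples was also lost with only those 2 groups in the fit (-0.64). Cyp4a10 in knockout samples passed at oxygen 1 under quantile normalization (-0.47), and after starvation with the last array of each sample (0.70) or with probes above background in all samples (0.56). Lyz1 at oxygen 1 passed in knockout samples under normexp with quantile normalization (-0.33). In wild-type samples it turned to -0.0527 in the authors' table, -0.11 under normexp with quantile normalization and -0.0743 under quantile normalization, and after starvation in knockout samples to 0.0342 with the last arrays. The causes were not tested.

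Leaving out each sample in turn gave, at oxygen 1 in wild-type and knockout samples, -1.08 to -0.87 and -1.15 to -0.83 for Lyz2, -0.0209 to 0.41 and -0.17 to 0.0418 for Lyz1, -0.83 to -0.55 and -0.85 to -0.45 for Hhipl1, and -0.77 to -0.60 and -0.45 to -0.31 for Cyp4a10. After starvation it gave -0.0928 to 0.11 and -0.12 to 0.0718 for Lyz2, -0.10 to 0.33 and -0.11 to 0.0598 for Lyz1, 0.34 to 0.58 and 0.39 to 0.64 for Hhipl1, and 0.29 to 0.64 and 0.36 to 0.68 for Cyp4a10. The probes that passed numbered 8107 to 10196 and 8551 to 10506 at oxygen 1, and 2071 (without starved wild-type replicate 1) to 3434 and 2449 to 3668 after starvation. Without wild-type control 1, knockout control 3 and starved wild-type 3 together, which earlier work on these data described as standing apart, the Lyz2 differences at oxygen 1 were -0.87 and -1.02.

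Replicate numbers are shared by the groups, and these values do not settle whether they pair the samples. Deviations from the group means correlated at 0.05 on average over 45 pairs of the same number (from -0.33 to 0.48) and at -0.03 over 90 pairs of different numbers. The correlation was over 0.1 in 15 of the 45 and in 19 of the 90 pairs. Of the 18 samples, 9 correlated best with their own number. With the replicate number as a block the Lyz2 differences at oxygen 1 were -0.98 and -0.999. Their standard error was 0.125, against 0.163 without the block. At oxygen 1, 10140 and 10481 probes passed with the block, against 9847 and 10208. After starvation 3293 and 3616 passed with it, against 3179 and 3427. With slide as a fixed block the Lyz2 differences at oxygen 1 were -1.16 and -1.03.

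Under the 4 other scalings, background corrections or sources added for the gene lists after seeing the data, 0 of 32 and 0 of 30 list genes called at oxygen 1 (wild type, knockout) turned their sign in any of the 4, and after starvation 1 of 13 (Mpo) and 0 of 16 did.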
